A study of Mus musculus with 20 samples.

Results

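The nuclear genes for oxidative phosphorylation (OXPHOS) were examined in the preoptic area (POA) of male mice. They were chosen by symbol, as the rows named for subunits of complexes I to V, with 10 or more counts in every mouse. Of the 25239 genes in the table, 90 symbols had such a name. The pseudogene rows Ndufs5-ps and Cox7c-ps1 were left out by name, and Cox7b2, Ndufa11b, Cox8b, Cox7a1 and Cox8c by counts, which left 83 members. Complex I had 39 of them, complex II 4, complex III 9, complex IV 14 and complex V 17. The rule used no difference between groups, but the members were chosen with earlier results of these data known.

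Bulk RNA sequencing was done on 20 male mice at postnatal day 320, in 4 groups of 5. Each male had been paired at postnatal day 20 and lived with its partner for 300 days, either a same-sex (SS) or an opposite-sex (OS) partner. OS males could breed and were housed with their pups. The dnFGFR mice were homozygous for a truncated FGF receptor 1 that lacks the tyrosine kinase domain, driven by the rat GnRH promoter, so that it is made in GnRH neurons, the small population that controls reproduction. Control mice came from matings of heterozygous siblings, and the sources used here give no further genotype for them. No drug was given to any group. Whether mice of 1 group shared a litter was not given in the sources used here, so p-values measure the spread between these mice.

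The counted reads per mouse ranged from 32353578 to 39871353, and the members took between 0.672% and 1.08% of them. Fgfr1 ranged from 87.4 to 88.7 CPM (counts scaled to a common library size by TMM factors) in control SS mice, from 86.6 to 99.2 in control OS mice, from 84.0 to 92.7 in dnFGFR SS mice and from 81.6 to 102 in dnFGFR OS mice, so the groups overlapped. The count per gene does not separate the transgene from the mouse's own Fgfr1 and so checks no label. Of the 5 marker genes listed for each of 9 cell populations, every gene had reads in every group. The preoptic list, with Gnrh1, had a summed level of 29.1 to 44.9 CPM over the 20 mice. Most of that sum was Nts, with group means of 23.3 to 26.2 CPM, against 1.27 to 2.02 for Gnrh1. The striatal neuron list summed to 1122 to 2234 CPM, so these levels do not show how much of the tissue was preoptic. Controls were collected in June and July and dnFGFR mice in May, with the exception of replicate 4 of the dnFGFR SS group (November). Genotype and collection date thus cannot be told apart. One mouse, dnFGFR OS replicate 5, had reads for 18416 genes, against 19101 or more in the others. It is given with and without below.

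Oxidative phosphorylation is the last step of fuel oxidation in the mitochondrion. Complex I takes electrons from NADH and complex II from succinate, complex III passes them by way of cytochrome c to complex IV, which reduces oxygen, and complex V, the ATP synthase, uses the proton gradient so formed to make ATP. Most subunits are encoded in the nucleus and imported, and a core set is encoded by mitochondrial DNA, so assembly draws on both genomes. The brain depends heavily on this pathway, because synaptic transmission and the upkeep of ion gradients use much ATP. The mitochondrially encoded subunits are not analysed here. In bulk tissue, fewer cells of a type and less RNA per cell cannot be told apart.

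Nuclear OXPHOS genes are known targets of a few shared promoter-binding factors, among them NRF1, the ETS factor GABPA, YY1 and Sp1. RefSeq promoter windows, reaching from 250 bases before to 50 bases after the annotated start (GRCm38.p6), were found for 66 of the 83 members. The 150 bases just before the start are shown for the members on which the results below turn most, namely Ndufa12, which had the smallest p-values, Sdha and Atp5k, the lowest and highest in the difference between a pair of mice, and Atp5b, the most abundant. All are written 5′ to 3′ on the gene's own strand, with matches to the motifs below in capitals. They lie at chr10:94198885-94199034 on the plus strand (Ndufa12), chr13:74350241-74350390 on the minus strand (Sdha), chr5:108434400-108434549 on the minus strand (Atp5k) and chr10:128083157-128083306 on the plus strand (Atp5b).
Ndufa12: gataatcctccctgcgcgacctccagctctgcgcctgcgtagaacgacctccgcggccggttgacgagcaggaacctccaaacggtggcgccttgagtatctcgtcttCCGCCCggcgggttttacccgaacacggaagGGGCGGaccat
Sdha: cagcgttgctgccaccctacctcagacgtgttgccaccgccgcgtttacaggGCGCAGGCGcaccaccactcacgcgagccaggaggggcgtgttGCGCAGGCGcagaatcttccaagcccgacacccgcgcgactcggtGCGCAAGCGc
Atp5k: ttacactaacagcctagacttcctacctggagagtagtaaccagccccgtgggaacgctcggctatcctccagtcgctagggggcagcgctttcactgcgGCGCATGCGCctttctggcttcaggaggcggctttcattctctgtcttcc
Atp5b: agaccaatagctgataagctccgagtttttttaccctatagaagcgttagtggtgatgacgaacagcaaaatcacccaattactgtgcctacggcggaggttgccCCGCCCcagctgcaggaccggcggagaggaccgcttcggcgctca

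The motifs searched, on both strands, were GCGCANGCG for NRF1, CCGGAAG for ETS factors, AAGATGGCG for YY1 and GGGCGG for Sp1. They may overlap one another. In capitals, Sdha carried 3 NRF1 matches, Atp5k an overlapping pair of them on opposite strands, Ndufa12 a pair of Sp1 matches and Atp5b 1 Sp1 match. Over the whole windows, the NRF1 letters were found in 20 of 66 members (30.3%), against 9.46% of the 18651 genes of the table with a window. ETS letters were found in 17 members (25.8%, against 12.7%), YY1 letters in 7 (10.6%, against 2.1%) and Sp1 letters in 28 (42.4%, against 48.6%). NRF1 letters occurred in 8 of 33 windows of complex I, 7 of 15 of complex V and 1 of 10 of complex IV. A match is a description of the letters, not a site of binding.

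The members were compared by level after division by transcript length, as CPM per kilobase averaged over the 20 mice. Together they summed to 8588 CPM, of which complex V gave 3156, complex I 2365, complex IV 1563, complex III 881 and complex II 623. Per kilobase the median member of complex IV stood at 126, that of complex V at 114, of complex III at 79.2, of complex II at 66.2 and of complex I at 58.6. Within each complex the members spread widely, so these medians overlapped in range.

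**Figure D1:**
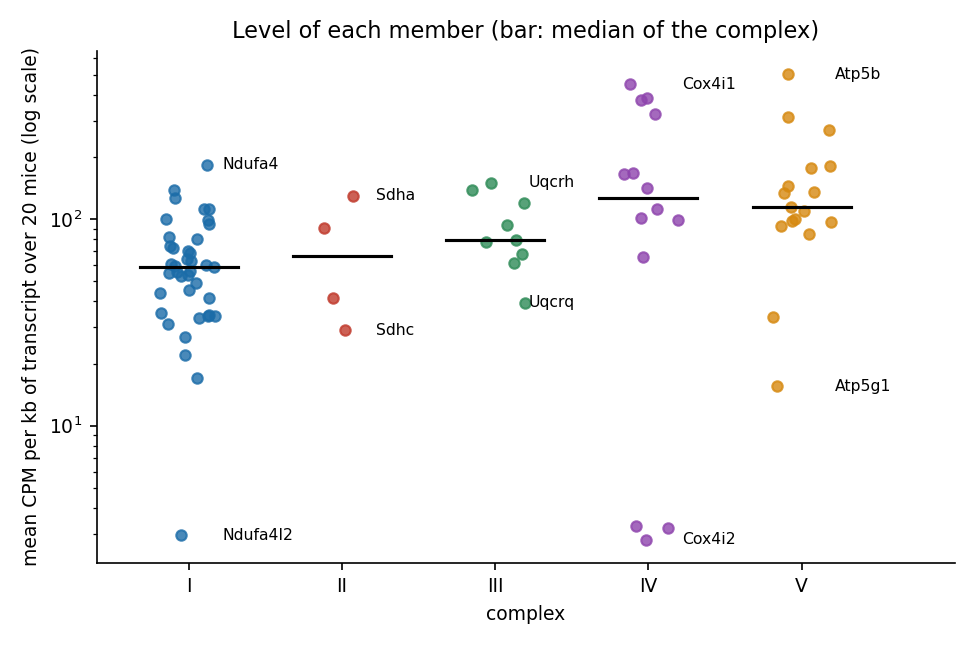
Level of each of the 83 members in mean CPM per kilobase of transcript over the 20 mice (log scale), by complex, with the median of each complex as a bar and the highest and lowest member named. Atp5b stands highest at 504, and Ndufa4l2 and a set of 3 complex IV members lie between 2.81 and 3.26, below all others.

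Atp5b, the catalytic beta subunit of the ATP synthase, was highest at 504 CPM per kilobase. The complex IV subunits Cox4i1 at 449, Cox8a at 387, Cox6a1 at 376 and Cox6c at 323 came next, and then Atp5a1, the alpha subunit of the ATP synthase, at 312. In complex I the highest was Ndufa4 at 183. It is counted here by its name, although it is now regarded as a subunit of complex IV. Sdha, the flavoprotein that oxidises succinate, led complex II at 130, and Uqcrh led complex III at 150.

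Tissue-restricted paralogues were present at a small part of the level of their partners. Cox4i2, a form known from lung and smooth muscle, averaged 2.04 CPM against 343 for Cox4i1. Cox6a2, the heart and skeletal muscle form, averaged 2.17 CPM against 215 for Cox6a1, and Cox6b2, the testis form, 1.91 against 87.0 for Cox6b1. Ndufa4l2, a paralogue known to be induced by hypoxia, averaged 2.76 CPM against 112 for Ndufa4. By contrast, the 3 genes that encode the same mature c subunit of the ATP synthase ring lay within a smaller span, with Atp5g3 at 128 CPM, Atp5g1 at 73.4 and Atp5g2 at 61.7.

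The largest differences in the members' values were between single mice, and the group means differed less. To describe this pattern, each member's log2 CPM was set against its own mean over the 20 mice. The deviations were then averaged over the 83 members in each mouse. Control SS mice stayed within a narrow band, at 0.08, 0.04, -0.07, -0.04 and -0.05 for replicates 1 to 5. Control OS mice stood at -0.01, 0.30, -0.19, 0.01 and 0.12, and dnFGFR SS mice at -0.10, 0.04, 0.28, -0.09 and 0.17. The dnFGFR OS mice were widest apart, at -0.09, 0.42, -0.20, -0.02 and -0.57. The group means were -0.01 ± 0.06, 0.04 ± 0.18, 0.06 ± 0.17 and -0.09 ± 0.36 (SD, n = 5 each) in the order given, so the means differed by less than the SD of the dnFGFR OS mice and all 4 ranges overlapped. Without dnFGFR OS replicate 5 the last mean was 0.03 ± 0.27 (SD, n = 4).

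**Figure D2:**
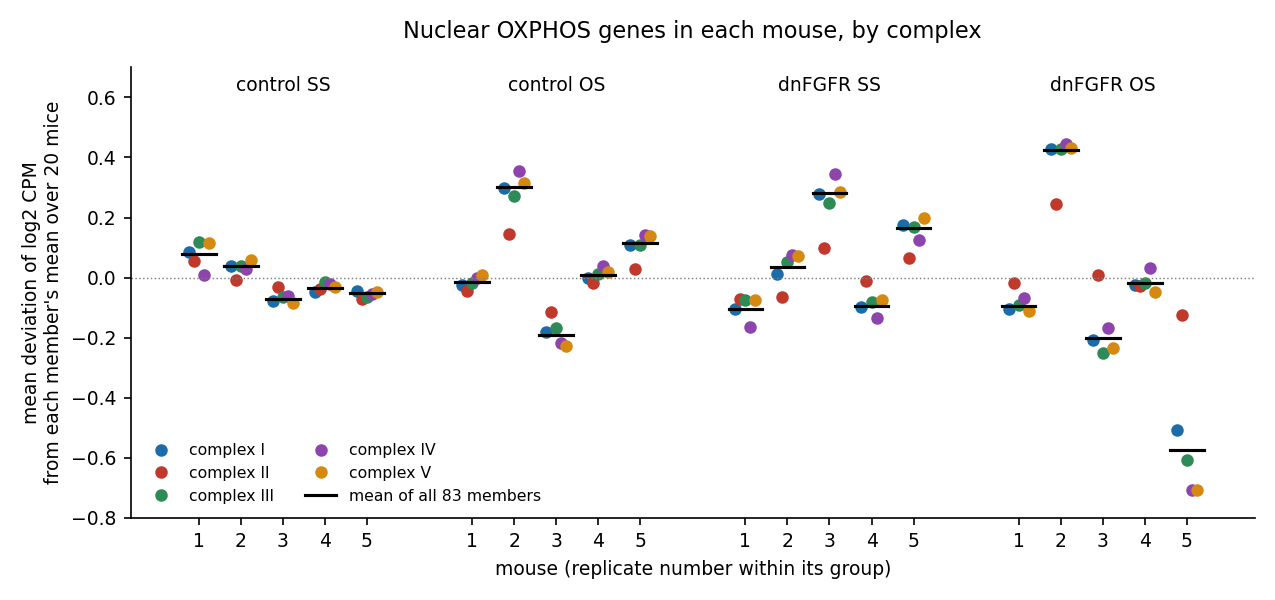
Mean deviation of log2 CPM from each member's own mean over the 20 mice, for each complex (points) and for all 83 members (black bar), with the mice in replicate number order inside the 4 groups. In value, dnFGFR OS replicate 2 is highest at 0.42 and replicate 5 of the same group lowest at -0.57, and complex II (red) deviates least in both.

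Most members deviated the same way in the mice at the ends of the range. In dnFGFR OS replicate 2, all 83 members were above their own mean over the mice, and in control OS replicate 2, 82 were. In dnFGFR OS replicate 5, 4 were, and in control OS replicate 3, 5 were. Replicate 2 of the dnFGFR OS mice held the highest value of 63 of the 83 members, and replicate 5 of the same group the lowest value of 62. These mice were singled out after their values were seen. Comparing them member by member, replicate 2 stood above replicate 5 in 82 of 83, by a median of 0.90 on the log2 scale. The exception was Sdha, which was 0.14 lower in replicate 2.

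The size of the shift differed among complexes. In dnFGFR OS replicate 5 the mean deviation was -0.71 for both complexes IV and V, -0.61 for complex III, -0.51 for complex I and -0.12 for complex II. In replicate 2 it was 0.44, 0.43, 0.43, 0.43 and 0.25 for the same complexes. Complex II, the succinate dehydrogenase, which also belongs to the citric acid cycle, thus deviated least in both. Its 4 transcripts had a median length of 2066 bases, against 1363 for complex III, 861 for complex I, 809 for complex V and 652 for complex IV. In replicate 5 complex III shifted more than complex I, and its median length was also greater. Lengths ran from 434 to 1896 bases inside complex III and from 315 to 3479 inside complex I. A median therefore describes the length of a complex only in part.

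Over the 83 members the difference between these mice was larger for shorter transcripts. It had a median of 1.27 over the 34 members under 700 bases, 0.82 over the 28 members from 700 to under 1400 bases, and 0.51 over the 21 members of 1400 bases or more. The correlation of the difference with log2 length across members was -0.50 (Pearson) and -0.54 (Spearman), and with log2 mean CPM -0.46 and -0.47. Members share the libraries and are not independent replicates. Among the other 18 mice the range of each member's log2 CPM was also wider for short transcripts, with medians of 0.74, 0.53 and 0.36 in the same length classes. That range followed level more closely than length. Its correlation with log2 mean CPM was -0.702 (Pearson) and -0.687 (Spearman), against -0.395 and -0.61 with log2 length. Length and level were not separated.

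**Figure D3:**
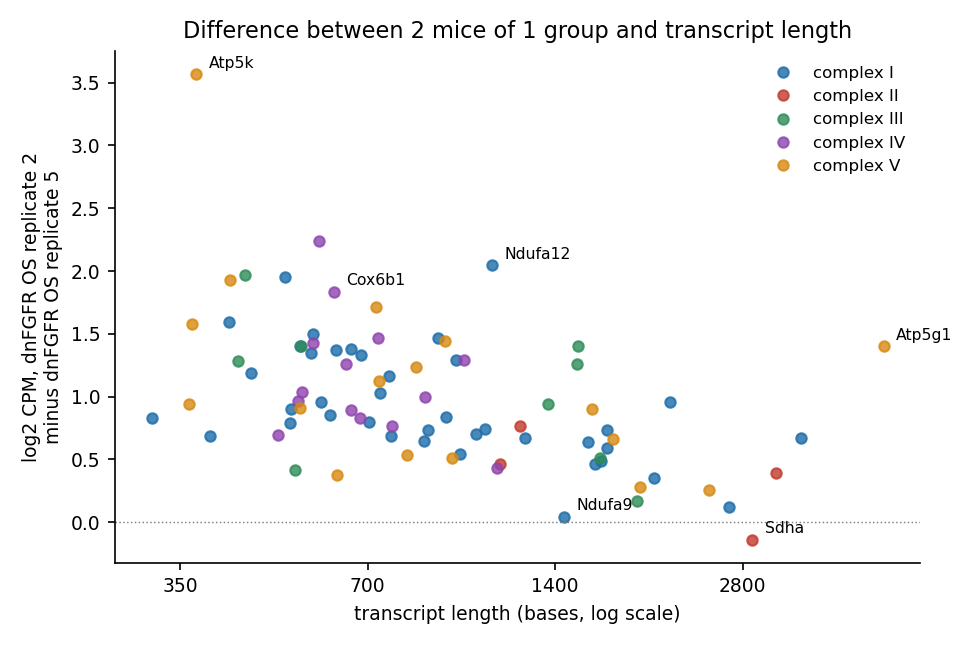
Difference in log2 CPM between dnFGFR OS replicates 2 and 5 for each of the 83 members (vertical) against transcript length in bases (horizontal, log scale), coloured by complex. Short transcripts such as Atp5k lie high, at 3.57, long ones such as Sdha near or below 0, and Atp5g1 with the longest annotated transcript stands apart at 1.40.

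The same mice also differed over all genes with length and GC content. A doubling of length went with 0.12 more log2 CPM in dnFGFR OS replicate 5 and 0.11 less in replicate 2. For 10 percentage points more GC, log2 CPM fell by 0.31 in replicate 5. In replicate 2 it rose by 0.06, less than in dnFGFR SS replicate 3 (0.11). With each mouse's trend on length and GC removed, replicate 5 stood at -0.27 and replicate 2 at 0.25, and the members' range over the 20 mice narrowed from 1.00 to 0.53. Complex II still deviated least, at -0.01 in replicate 5, against -0.19, -0.31, -0.35 and -0.44 for I, III, IV and V. In replicate 2 it was at 0.17, against 0.25, 0.26, 0.24 and 0.28. The part of RNA quality in the pattern was not tested.

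Other gene families shifted in the same mice. Genes for cytosolic ribosomal proteins (86) stood at 0.40 in dnFGFR OS replicate 2 and -0.44 in replicate 5, those for mitochondrial ribosomal proteins (78) at 0.30 and -0.37, and proteasome subunits (38) at 0.34 and -0.19. The 46 assembly factors that build the complexes stood at 0.22 and -0.20. Enzymes of the citric acid cycle (18), which feed the chain, stood at 0.15 and 0.01, and the 15 regulators of mitochondrial biogenesis at -0.04 and 0.05. For the regulators replicate 5 was the highest of the 20 mice, the other 18 lying between -0.05 and 0.04. The glycolysis list (16) stood at 0.32 and -0.18, and the carriers with cytochrome c at 0.24 and -0.10. The lists of 5 cell-type markers differed in direction. Neuronal markers stood at 0.18 and -0.07, inside the range of the other 18 mice (-0.18 to 0.19). Higher in replicate 5 were astrocyte (-0.15 and 0.20), endothelium (-0.23 and 0.08) and blood markers (-0.64 and 0.92). For these lists both mice were also inside the range of the other 18 (-0.25 to 0.25, -0.30 to 0.16 and -0.84 to 1.33). Markers of ependyma and choroid plexus stood at -2.43 and 0.60, and dnFGFR SS replicate 4 was lower, at -3.17. Below 0 in both mice were oligodendrocyte (-0.46 and -0.08), striatal (-0.07 and -0.19), preoptic (-0.60 and -0.40) and microglia markers (-0.05 and -0.04). These too were inside the range of the other 18, except that replicate 2 was lowest of the 20 mice for the preoptic list. The part of cell composition in the pattern was not tested.

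Whether opposite-sex housing changed the members in control mice was asked first. No member was called at an adjusted p under 0.1 (edgeR quasi-likelihood test with Benjamini-Hochberg adjustment over all genes), where 0.124% of 17004 genes were. Of the 83 members, 70 had a fold change above 0, with a median log2 fold change of 0.05, against 0.00 and 50.9% above 0 over all genes. The medians by complex were 0.04, 0.02, 0.05, 0.07 and 0.06 for I to V. An unadjusted p under 0.05 was found for 1 member (Cox7a2l), where 7.2% of genes did. No member had groups that did not overlap, where 1.63% of genes did.

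Cox7a2l, which joins complexes III and IV into supercomplexes, stood at 103, 111, 108, 109 and 112 CPM in control SS mice and at 109, 131, 113, 119 and 115 in control OS mice. The OS values were higher on average and the groups overlapped (log2 fold change 0.11 ± 0.05 SE, edgeR adjusted p = 0.677). Ndufa12, an accessory subunit in the peripheral arm of complex I, stood at 39.5, 35.7, 44.2, 31.6 and 29.7 CPM in SS mice and at 40.6, 59, 33.5, 39.2 and 40.01 in OS mice, with OS replicate 2 far above the rest (0.23 ± 0.13, edgeR adjusted p = 0.764). Of the members with negative values, those of smallest p were Ndufs1, the iron-sulfur subunit of the NADH module, at -0.04 ± 0.05, and Ndufa9 at -0.03 ± 0.04 (edgeR adjusted p = 0.919 and 0.927).

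Single mice set the size of these values. Without control OS replicate 2 the median member was at 0.00, slightly below 0, and without control OS replicate 3 it was at 0.11, with 17 members higher in OS mice at an unadjusted p under 0.05 and 0 lower, where 4.97% of genes were higher and 5.06% lower. The 5 markers of ependyma and choroid plexus, Ttr among them, had a summed level of 24.4 to 1042 CPM in control SS mice and 37.6 to 1897 in control OS mice, and all 5 had a fold change above 0. Their part in the members' values was not tested.

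In dnFGFR mice the same housing comparison gave 0 called members and 0.0% of 16944 genes (edgeR, adjusted p under 0.1). This differs from the study, which at the same threshold reported changed genes in dnFGFR mice but not in control mice. The study used DESeq2 after removing an outlier, so its tool and set of mice were not those used here. The median log2 fold change of the members was -0.08, against 0.00 over all genes, and 24 of 83 were above 0. At an unadjusted p under 0.05 there was again 1 member, Ndufa12, where 6.72% of genes passed. Complex medians were -0.06, 0.05, -0.15, -0.09 and -0.16 for I to V. No member had groups that did not overlap, where 1.42% of genes did.

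The median depended on which mice were kept. Without dnFGFR OS replicate 5 it was 0.00, slightly above 0. Without replicate 2 of that group it was -0.21, with 32 members lower in OS mice at an unadjusted p under 0.05 and 0 higher, where 16.8% of genes passed (9.49% lower and 7.28% higher). Leaving out both gave -0.14, with 20 members lower and 0 higher, where 12.1% of genes passed (7.65% lower and 4.44% higher). By limma voom with sample weights, which gives mice that stand apart less weight, it was -0.11 on all mice, with 14 members lower and 0 higher at an unadjusted p under 0.05, where 13.4% of genes passed (8.22% lower and 5.21% higher). No member was called in any of these fits. Within the 2 collection dates that held dnFGFR mice of both housings, the median was -0.16, on 2 SS and 4 OS mice.

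Cell-type markers also differed in value in this comparison. The 5 striatal neuron markers were summed to 1665 to 2051 CPM in dnFGFR SS mice and 1122 to 1798 in dnFGFR OS mice. All 5 had a negative value (median -0.24), with 2 at an unadjusted p under 0.05, where 6.72% of all genes passed. The 5 astrocyte markers were summed to 972 to 1164 CPM and 1032 to 1346 CPM, all with a positive value (median 0.16) and 0 at that p. No marker of either list was at 0 in any group. In other lists, the neuronal marker Rbfox3 (-0.31 ± 0.11 SE) and the microglial marker P2ry12 (0.23 ± 0.08 SE) also had an unadjusted p under 0.05. Neither was called (edgeR adjusted p = 0.726 for both). The part of these markers in the members' values was not tested.

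**Figure D4:**
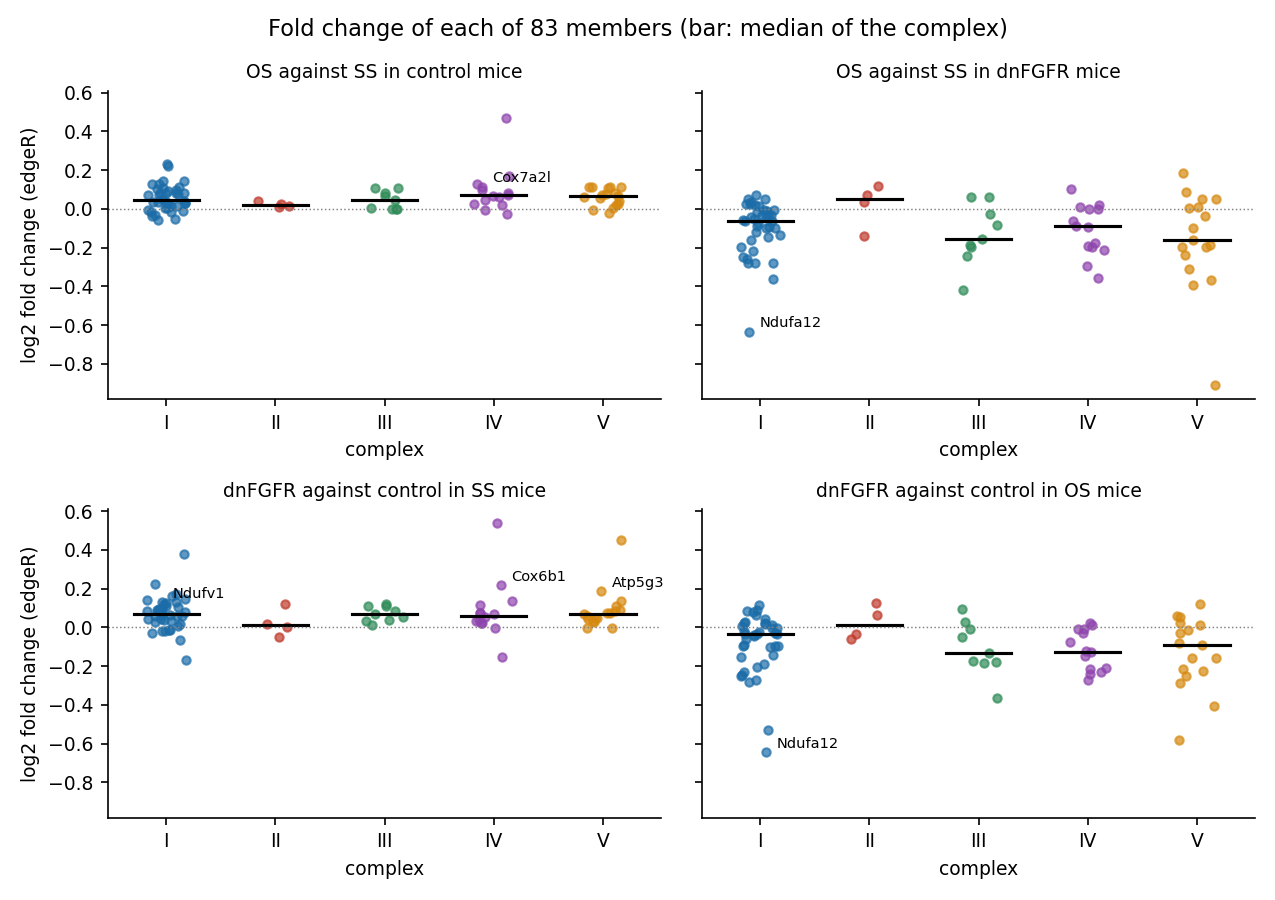
Log2 fold change of each of the 83 members (points) by complex in the 4 comparisons between pairs of groups, with the median of each complex as a bar and the members with an unadjusted edgeR p under 0.05 named. Values cluster just above 0 in the left panels, medians 0.05 and 0.07, and spread below 0 in the right panels, which hold the dnFGFR OS mice; none passed an adjusted p under 0.1.

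Ndufa12 stood at 33.0, 44.5, 50.1, 43.6 and 39.4 CPM in dnFGFR SS mice and at 21.5, 47.3, 23.7, 31.8 and 11.4 CPM in dnFGFR OS mice. In the OS group 4 of 5 values were below every SS value, and OS replicate 2 was inside the SS range (log2 fold change -0.63 ± 0.27 SE, edgeR adjusted p = 0.726). Without OS replicate 5 the change was -0.44. With the trend on length and GC removed it was still -0.63.

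Atp5k, the small subunit e at the dimer interface of the ATP synthase, had the largest decrease in value. It stood at 11.6, 15.2, 27.2, 9.46 and 17.5 CPM in dnFGFR SS mice and at 5.26, 20.9, 4.92, 10.2 and 1.71 in dnFGFR OS mice, with OS replicate 5 lowest of all 20 mice. The change was -0.91 ± 0.49 SE (edgeR adjusted p = 0.753), and -0.65 without OS replicate 5. Against the trend, Atp5h, a stator stalk subunit, was higher in value in OS mice, at 125, 145, 132, 106 and 112 CPM against 95.9, 108, 121, 101 and 119 in SS mice. Its groups overlapped too (0.18 ± 0.10 SE, edgeR adjusted p = 0.750).

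Sdha, the catalytic subunit of complex II, was the other member with a positive change of small p. Its levels were 370, 346, 374, 391 and 369 CPM in dnFGFR SS mice and 384, 400, 406, 378 and 440 in dnFGFR OS mice. The highest of all 20 mice was dnFGFR OS replicate 5, the mouse in which most other members were lowest (0.12 ± 0.07 SE, edgeR adjusted p = 0.768, and 0.08 without that mouse).

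**Figure D5:**
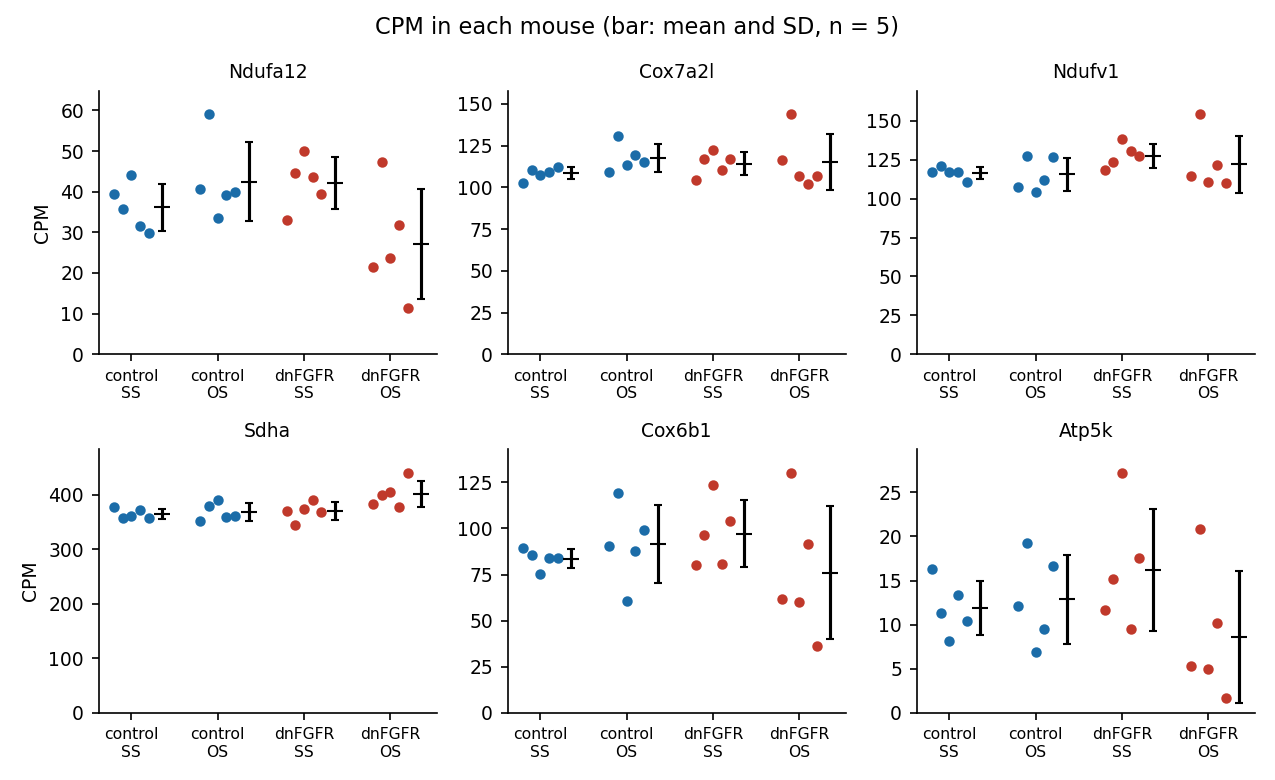
CPM of 6 members in each mouse (points, blue for control and red for dnFGFR) with mean and SD beside each group of 5. Ndufa12 and Atp5k are lowest in dnFGFR OS mice on average, at 27.1 and 8.59 CPM, with replicate 2 of that group high in both, while the group means of Sdha are 365 to 402 CPM.

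The genotypes were compared in SS mice next. No member was called, where 0.2% of 16992 genes were (edgeR, adjusted p under 0.1). The members' median was 0.07, with 71 of 83 above 0, against 0.00 and 51.6% over all genes. At an unadjusted p under 0.05 there were 3 members, all higher in dnFGFR mice, where 8.63% of genes passed. No member had groups that did not overlap, where 1.57% of genes did. The 3 members were Ndufv1, the NADH-binding core subunit of complex I, Atp5g3, and Cox6b1, a complex IV subunit that faces the intermembrane space.

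Ndufv1 stood at 117, 121, 117, 117 and 111 CPM in control SS mice and at 118, 124, 139, 130 and 127 in dnFGFR SS mice. Control replicate 2 was above dnFGFR replicate 1, so the groups overlapped slightly (0.13 ± 0.05 SE, edgeR adjusted p = 0.455). Atp5g3 stood at 130, 132, 109, 137 and 124 CPM in control mice and at 133, 135, 167, 128 and 156 in dnFGFR mice (0.19 ± 0.08 SE, edgeR adjusted p = 0.520). Cox6b1 stood at 89.4, 85.4, 75.3, 83.8 and 84.0 against 80.4, 96.7, 124, 80.7 and 104, so that dnFGFR replicates 2, 3 and 5 were above every control value and the others were not (0.22 ± 0.10 SE, edgeR adjusted p = 0.576).

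The members with negative values of smallest p were Ndufa4l2 at -0.17 ± 0.19 and Ndufs4, an accessory subunit of complex I, at -0.06 ± 0.07 (edgeR adjusted p = 0.859 and 0.866). Without dnFGFR SS replicate 3 the median of all members was 0.02. Without replicate 4, the mouse collected in November, it was 0.09, with 12 members higher in dnFGFR mice at an unadjusted p under 0.05 and 0 lower, where 9.79% of genes passed (5.11% higher and 4.68% lower). Striatal neuron markers (5) were summed to 1839 to 2234 CPM in control SS mice and 1665 to 2051 in dnFGFR SS mice. All 5 had a negative value, with 4 at an unadjusted p under 0.05, where 8.63% of all genes passed on all mice. Their part in the members' values was not tested.

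Between the genotypes in OS mice, 0 members were called and 0.0531% of 16941 genes (edgeR, adjusted p under 0.1). The median member was at -0.06, with 23 of 83 above 0, and 1 member (Ndufa12, lower) had an unadjusted p under 0.05, where 7.02% of genes did. Groups without overlap were found for 0 members and 1.55% of genes. This comparison uses the same dnFGFR OS mice as the housing comparison above, so their values are not independent. Without dnFGFR OS replicate 5 the median was 0.02, and without replicate 2 it was -0.20, with 26 members lower at an unadjusted p under 0.05 and 0 higher, where 13.5% of genes passed (7.9% lower and 5.56% higher). By limma voom with sample weights on all mice there were 9 lower and 0 higher, where 10.9% of genes passed (6.4% lower and 4.46% higher). Ndufa12 had a change of -0.65 ± 0.28 SE (edgeR adjusted p = 0.673), from the control OS and dnFGFR OS values printed above. Ndufv3, another accessory subunit of complex I, was at -0.19 ± 0.12, Sdha at 0.12 ± 0.07 and Uqcrc2, a core subunit of complex III, at 0.10 ± 0.06 (edgeR adjusted p = 0.787, 0.742 and 0.791). The 5 striatal neuron markers were summed to 1732 to 2132 CPM in control OS mice and 1122 to 1798 in dnFGFR OS mice. All had negative values by edgeR and 4 an unadjusted p under 0.05, where 7.02% of all genes passed. Their part was not tested.

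Whether the housing change differed by genotype was tested as an interaction on all 20 mice. No member and 0.0% of 17445 genes were called (edgeR, adjusted p under 0.1), and 1 member, Ndufa12, had an unadjusted p under 0.05, where 3.41% of genes did. The median difference between the housing changes was -0.14, dnFGFR minus control, and 17 of 83 were above 0. Without dnFGFR OS replicate 5 the median was -0.04, and without replicate 2 it was -0.28. By limma voom with sample weights it was -0.17, with 18 members below 0 at an unadjusted p under 0.05 and 0 above, where 8.61% of genes passed (5.48% below 0 and 3.13% above), and none called. Ndufa12 had a difference of -0.87 ± 0.33 SE (edgeR adjusted p = 0.963), since its mean was higher in OS than in SS control mice, at 42.5 and 36.1 CPM, and lower in OS than in SS dnFGFR mice, at 27.1 and 42.1 CPM. Atp5g3 was at -0.47 ± 0.27 (edgeR adjusted p = 0.963).

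In the test of any difference among the 4 groups, 0 members were called, where 1.15% of genes were (edgeR, adjusted p under 0.1), and 1 member had an unadjusted p under 0.05, against 11.7% of genes. This was Ndufa12 (edgeR adjusted p = 0.419). It was called without dnFGFR OS replicate 2, with an edgeR adjusted p = 0.0589. The share of all genes called in that refit is not given here, so the call cannot be read as particular to Ndufa12. By limma voom with sample weights on all mice Ndufa12 was called too, with an adjusted p = 0.0493, where Atp5k was at 0.0995 and 4.36% of genes were called.

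The remaining members chosen by role, level or p-value are given by complex, in the order of replicates 1 to 5 in each group. None passed an adjusted p under 0.1 in any comparison (edgeR).

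In complex I, electrons enter from NADH at Ndufv1 and pass through the iron-sulfur clusters of Ndufs1. Ndufs1 measured 145, 143, 135, 140.1 and 140.3 CPM in control SS mice and 134, 144, 139.6, 126 and 140.5 in control OS mice, and 148, 146, 144, 159.6 and 146 in dnFGFR SS and 138, 159, 143, 139 and 147 in dnFGFR OS mice. It was highest in dnFGFR SS replicate 4. In OS mice Ndufv1 stood at 108, 128, 105, 112 and 127 CPM (control) and 115, 154, 111, 121 and 110.2 CPM (dnFGFR). In both OS groups replicate 2 was the highest mouse for Ndufv1. Ndufab1 was at 65.4, 62.05, 52.7, 63.6 and 58.5 CPM in control SS mice and 58.9, 69.1, 49.6, 60.4 and 63.1 in control OS mice, and 57.5, 57.4, 65.4, 54.8 and 64.3 in dnFGFR SS and 58.5, 70.5, 50.1, 58.4 and 44.2 in dnFGFR OS mice. This is the mitochondrial acyl carrier protein, and its groups overlapped throughout.

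Accessory subunits differed in how far they spread. Ndufs4 gave 49.7, 47.2, 41.7, 46.7 and 43.9 CPM in control SS mice and 43.1, 57.7, 44.4, 43.7 and 46.7 in control OS mice, and 38.4, 44.9, 45.8, 39.6 and 50.02 in dnFGFR SS and 46.7, 60.4, 42.2, 44.5 and 36.3 in dnFGFR OS mice. Ndufv3 stood at 37.7, 33.1, 28.9, 35.3 and 34.5 CPM in control SS mice and 35.9, 44.8, 34.6, 33.3 and 36.7 in control OS mice, and 30.5, 31.1, 42.8, 32.04 and 39.9 in dnFGFR SS and 31.4, 43.1, 28.6, 31.6 and 27.7 in dnFGFR OS mice. For both, replicate 2 was the highest in each OS group and dnFGFR OS replicate 5 the lowest of all mice. Ndufa9 measured 82.8, 79.6, 78.01, 82.9 and 76.8 CPM in control SS mice and 76.3, 78.8, 77.9, 78.9 and 79.4 in control OS mice, and 77.5, 77.01, 81.2, 89.1 and 84.5 in dnFGFR SS and 80.4, 92.3, 76.5, 77.6 and 89.5 in dnFGFR OS mice. Ndufa9 was among the steadiest members, with a ratio of 1.21 between its highest and lowest mouse. Ndufa4 was at 114, 114, 103, 99.6 and 107 CPM in control SS mice and 109.9, 138, 97.5, 109 and 125 in control OS mice, and 101, 118, 130.5, 97.9 and 124 in dnFGFR SS and 107, 152, 94.6, 105 and 84.2 in dnFGFR OS mice. Ndufa4 had the highest CPM per kilobase of complex I. Ndufa4l2 gave 2.26, 3.08, 2.64, 3.82 and 2.47 CPM in control SS mice and 3.08, 4.9, 2.1, 2.89 and 3.72 in control OS mice, and 2.23, 1.98, 3.11, 2.35 and 3.03 in dnFGFR SS and 0.496, 4.3, 1.72, 2.63 and 2.38 in dnFGFR OS mice. This low paralogue varied 9.88-fold over the mice.

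In complex II, dnFGFR OS replicate 2 stood apart for the iron-sulfur subunit. Sdhb stood at 99.6, 103, 103, 99.6 and 105 CPM in control SS mice and 101, 109, 91.8, 103 and 108 in control OS mice, and 96.8, 96.6, 106, 104 and 107 in dnFGFR SS and 99.8, 134, 106, 99.2 and 97.2 in dnFGFR OS mice. The other mice lay between 91.8 and 109 CPM. Sdhd measured 55.1, 52.8, 46.4, 48.2 and 47.8 CPM in control SS mice and 49.7, 63.2, 42.1, 49.9 and 52.4 in control OS mice, and 50.1, 52.4, 65.4, 46.6 and 57.5 in dnFGFR SS and 47.7, 66.8, 43.1, 50.1 and 39.2 in dnFGFR OS mice. Sdhd, a membrane anchor with the lowest mean CPM of the complex, was lowest in dnFGFR OS replicate 5. In control mice Sdha stood at 378, 358, 362, 372 and 357 CPM (SS) and 352, 380.2, 391, 359.7 and 361 CPM (OS). For Sdha the housings overlapped in control mice too.

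The complex III core proteins follow. Uqcrc2 was at 181, 179, 176, 168 and 170 CPM in control SS mice and 167, 182, 176, 172 and 176 in control OS mice, and 179, 168, 168, 200.3 and 177 in dnFGFR SS and 178, 209, 177, 183 and 185 in dnFGFR OS mice. The highest mouse was dnFGFR OS replicate 2, and replicate 5 of that group was inside the range of the others. Uqcrc1 gave 229, 230.4, 226, 228 and 212 CPM in control SS mice and 214, 235, 218, 227 and 234 in control OS mice, and 222, 214, 238, 249 and 247 in dnFGFR SS and 207, 288, 225, 226 and 202 in dnFGFR OS mice. Uqcrfs1 stood at 94.5, 94.6, 85.6, 96.1 and 91.5 CPM in control SS mice and 85.9, 111, 78.5, 93.1 and 94.4 in control OS mice, and 85.7, 95.7, 100.5, 93.3 and 99.4 in dnFGFR SS and 84.8, 124, 80.95, 93.9 and 64.5 in dnFGFR OS mice. The latter encodes the Rieske iron-sulfur protein and was lowest in dnFGFR OS replicate 5. Cyc1 hands electrons to cytochrome c. Cyc1 measured 123, 122, 119, 119 and 119 CPM in control SS mice and 111, 139.6, 111, 120.4 and 120.3 in control OS mice, and 114, 127, 136, 126 and 128 in dnFGFR SS and 102, 154, 89.96, 123 and 64.2 in dnFGFR OS mice. Its spread was widest in dnFGFR OS mice (SD 33.9 CPM, against 1.92 in control SS mice). The change with housing in dnFGFR mice was -0.24 ± 0.17 SE (edgeR adjusted p = 0.805). Uqcr11 was at 31.99, 27.99, 22.9, 30.4 and 25.4 CPM in control SS mice and 28.8, 35.9, 19.8, 28.1 and 32.6 in control OS mice, and 24.1, 29.2, 42.3, 21.03 and 34.1 in dnFGFR SS and 22.6, 40.4, 15.03, 24.5 and 10.3 in dnFGFR OS mice. This small subunit had the lowest mean CPM of complex III.

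In complex IV, dnFGFR OS replicate 2 was the highest mouse in 11 of 14 members and replicate 5 the lowest in 10. Cox4i1 gave 339.9, 337, 311, 316 and 338 CPM in control SS mice and 333, 389, 310.3, 353 and 370.2 in control OS mice, and 303, 361, 378, 299 and 379 in dnFGFR SS and 359, 463, 323, 328 and 273 in dnFGFR OS mice. Cox5a stood at 122, 108, 102, 111 and 102 CPM in control SS mice and 109.6, 132, 91.04, 104 and 117 in control OS mice, and 100.1, 111, 126, 105 and 123 in dnFGFR SS and 103, 143, 91.1, 104 and 59.5 in dnFGFR OS mice. Cox6c measured 162, 168, 167, 143 and 148 CPM in control SS mice and 166, 196, 132, 165 and 176 in control OS mice, and 141, 159, 181, 129 and 175 in dnFGFR SS and 161, 216, 164, 167 and 133 in dnFGFR OS mice. The SD was lowest in control SS mice and highest in dnFGFR OS mice for all 3 of these core or abundant subunits. Cox6a1 was at 217, 226, 199.7, 215 and 214 CPM in control SS mice and 209.7, 263, 182, 223 and 250.4 in control OS mice, and 193, 229, 264, 194 and 248 in dnFGFR SS and 183, 297, 165, 216 and 110.3 in dnFGFR OS mice. Cox8a gave 223, 210, 215, 192 and 222 CPM in control SS mice and 207, 254, 173, 211 and 236 in control OS mice, and 193, 209.6, 256, 193 and 239.6 in dnFGFR SS and 198, 276, 203, 216 and 134 in dnFGFR OS mice. Cox7a2 stood at 77.2, 76.7, 71.8, 69.3 and 75.3 CPM in control SS mice and 67.6, 88.1, 51.96, 73.1 and 83.04 in control OS mice, and 67.4, 78.2, 87.6, 62.7 and 82.1 in dnFGFR SS and 71.6, 97.8, 69.04, 70.5 and 52.5 in dnFGFR OS mice. For these 3 genes the control SS mice lay inside the range of the dnFGFR OS mice. Cox6b1 measured 89.4, 85.4, 75.3, 83.8 and 84.03 CPM in control SS mice and 90.7, 119, 60.9, 87.9 and 98.97 in control OS mice, and 80.4, 96.7, 124, 80.7 and 104 in dnFGFR SS and 61.5, 130.1, 60.2, 91.5 and 36.4 in dnFGFR OS mice. In dnFGFR mice Cox7a2l stood at 104, 117, 122, 111 and 117 CPM (SS) and 116, 144, 107, 102 and 107 CPM (OS). Cox6b1 is the ubiquitous partner of Cox6b2. The low paralogues come last. Cox6b2 was at 1.05, 1.32, 1.36, 2.21 and 1.63 CPM in control SS mice and 1.84, 3.45, 1.67, 2.35 and 1.22 in control OS mice, and 1.45, 1.27, 4.73, 1.7 and 1.9 in dnFGFR SS and 1.46, 2.37, 2.55, 2.13 and 0.458 in dnFGFR OS mice. Cox6a2 gave 2.5, 2.36, 1.89, 2.21 and 1.66 CPM in control SS mice and 2.33, 2.88, 1.76, 2.13 and 2.81 in control OS mice, and 1.39, 2.79, 2.89, 1.58 and 2.11 in dnFGFR SS and 1.66, 2.7, 1.87, 2.35 and 1.5 in dnFGFR OS mice. Cox4i2 stood at 1.35, 2.42, 2.64, 2.33 and 1.89 CPM in control SS mice and 1.75, 2.28, 1.93, 2.41 and 2.73 in control OS mice, and 1.91, 2.25, 1.61, 2.2 and 1.61 in dnFGFR SS and 2.1, 2.89, 1.25, 2.32 and 1.01 in dnFGFR OS mice. The groups of these low-level paralogues overlapped.

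In complex V, the catalytic subunits come before the genes of the membrane ring. Atp5b measured 993, 933, 944, 926 and 935 CPM in control SS mice and 906, 994, 1006, 927 and 957 in control OS mice, and 913, 927, 959, 1031 and 983 in dnFGFR SS and 960.1, 1127, 1017, 951 and 929.5 in dnFGFR OS mice. Atp5a1 was at 783, 758, 755, 769 and 736 CPM in control SS mice and 699, 789.9, 777, 748 and 765 in control OS mice, and 765, 725, 785, 874 and 764 in dnFGFR SS and 755, 901, 757, 758 and 754 in dnFGFR OS mice. In dnFGFR OS replicate 5 Atp5a1 stood at 754 CPM. Atp5g1 gave 74.9, 78.6, 78.2, 66.8 and 76.9 CPM in control SS mice and 75.7, 96.2, 57.4, 73.96 and 66.8 in control OS mice, and 67.1, 76.9, 91.4, 65.1 and 90.02 in dnFGFR SS and 69.6, 93.2, 67.8, 65.7 and 35.2 in dnFGFR OS mice. Atp5g2 stood at 69.2, 63.3, 61.3, 67.4 and 56.7 CPM in control SS mice and 60.6, 73.9, 54.9, 65.5 and 68.6 in control OS mice, and 60.2, 64.4, 71.6, 58.7 and 61.9 in dnFGFR SS and 51.01, 78.1, 51.5, 60.2 and 35.8 in dnFGFR OS mice. These genes and Atp5g3 were each lowest of all 20 mice in that replicate. In OS mice Atp5g3 stood at 127, 161, 103, 129.9 and 146 CPM (control) and 104, 176, 87.9, 126 and 53.5 CPM (dnFGFR). In control mice Atp5h stood at 116, 113, 108, 93.4 and 97.2 CPM (SS) and 108, 127, 107, 115 and 113 CPM (OS). In control mice the housings overlapped for Atp5h as well. In control mice Atp5k stood at 16.3, 11.3, 8.19, 13.4 and 10.4 CPM (SS) and 12.1, 19.2, 6.92, 9.47 and 16.7 CPM (OS). The housings of the control mice overlapped for Atp5k too.

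Other genes of the pathway were taken from lists by role. Among 46 assembly factors, no gene was called in any comparison of 2 groups or the interaction. Over the 4 groups, Lyrm7, which loads the Rieske protein into complex III, and Coa7, a factor for complex IV, were called (edgeR adjusted p = 0.0793 and 0.0953), where 1.15% of all genes were. At an unadjusted p under 0.05 there were 7 assembly factors, where 11.7% of all genes passed. Lyrm7 averaged 16.4, 16.6, 19.4 and 22.4 CPM in control SS and OS and then dnFGFR SS and OS mice (SD 1.74, 1.98, 1.28 and 3.48). Coa7 reached at most 10.2 CPM in control OS mice and lay between 10.99 and 13.9 CPM over the other groups.

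Of the 15 regulators of biogenesis, 1 was called over the 4 groups, against the same 1.15% of all genes. This was Tfam (edgeR adjusted p = 0.0762), which packages mitochondrial DNA and starts its transcription. It averaged 31.8, 34.5, 33.9 and 38.9 CPM in the same order (SD 0.68, 0.66, 1.61 and 3.28), and was not called between any 2 groups. In control mice the smallest p of the list was that of Ppargc1b, a coactivator of mitochondrial genes (-0.24 ± 0.07 SE, edgeR adjusted p = 0.395).

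None of the 18 tested genes of the citric acid cycle, the 13 of carriers and cytochrome c or the 16 of glycolysis was called in any comparison (edgeR, adjusted p under 0.1). At an unadjusted p under 0.05 there were 0 cycle genes in either housing comparison, and 1 over the 4 groups, where 11.7% of all genes passed. The members of smallest p were Dld, a subunit shared by the dehydrogenase complexes of the cycle, at 0.18 ± 0.06 SE between genotypes in OS mice (edgeR adjusted p = 0.646), Ucp2, an inner membrane carrier, at 0.31 ± 0.08 with housing in control mice (edgeR adjusted p = 0.309), and Aldoc, an aldolase of astrocytes, at -0.18 ± 0.10 between genotypes in OS mice (edgeR adjusted p = 0.741).

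Set beside other families in the same fits, the members' median housing change in control mice of 0.05 compared with 0.09 for cytosolic ribosomal protein genes, 0.03 for mitochondrial ribosomal protein genes and 0.04 for proteasome subunits. In dnFGFR mice it was -0.08, compared with -0.01, -0.03 and 0.01. Between genotypes in SS mice it was 0.07, compared with 0.01, 0.04 and 0.06. These are descriptions, and the families were not tested against one another.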

How the data were processed

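The deposited file is a table of read counts per gene. Per the study's methods, paired-end reads were aligned with HISAT2 to GRCm38 and counted on the RefSeq annotation with Rsubread, and the authors analysed the counts with DESeq2 1.36.0 after removing an outlier. Options for strand, multi-mapped and overlapping reads are not given in the sources used here, so the 28 members that overlap another RefSeq gene and those with processed pseudogenes are uncertain. The table's 20 other columns belong to no sample here and were not used. The members, lists and alternatives were chosen with earlier results of these data known.

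CPM were scaled by TMM, and log2 CPM used a prior count of 2. Each comparison was fitted on its own groups with edgeR 4.0.16 (R 4.3.3) by the quasi-likelihood test after filterByExpr, with Benjamini-Hochberg adjustment over all genes tested and calls at an adjusted p under 0.1. All 83 members passed that filter in every comparison. The interaction and the 4-group test used all 20 mice. The scripts were tested on simulated counts. Alternatives included DESeq2 1.42.0, limma 3.58.1 and leaving out each mouse. Members with values in every mouse were those with the smallest p in each direction and comparison, the highest and lowest in level per complex, and core subunits and paralogues from a list. The result of 1 member named by this rule is not reported here. Promoter sequences are from RefSeq (GRCm38.p6), and 17 members without an entry are not shown. No pair of libraries of 1 group agreed within sampling noise.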

Additional observations from a re-analysis of the deposited data

Results flagged for a closer look

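Single values that lay far from the other 4 mice of their group were looked for in 76 sets of 5 mice, and 4 were found. Chance gives about 1 in 20 sets. Ndufs1 was high in dnFGFR SS replicate 4, at 7.32 log2 CPM, and Ndufs4 was high in control OS replicate 2, at 5.85. Ndufv1 and Uqcrc2 were both high in dnFGFR OS replicate 2, at 7.27 and 7.70 log2 CPM. The gap to the nearest of the other mice was 0.731, 0.725, 0.711 and 0.715 of the group's range in the order given. The mice that hold 3 of these 4 values, control OS replicate 2 and dnFGFR OS replicate 2, also had the highest mean over the members in their groups. The cause was not tested.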

How the results depend on the processing

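No member was called in any comparison between pairs of groups, or in the interaction, under any alternative run: RLE size factors, no filter, 10 or more counts in every mouse, DESeq2, limma voom with sample weights, all groups in 1 fit, DESeq2 with the 4 groups in 1 object and dnFGFR OS replicate 5 left out, the replicate block, removal of trends on GC content and length, genes with identical counts reduced to 1, comparisons within collection dates and each mouse left out. For any difference among the 4 groups, limma voom called 2 members (Ndufa12 and Atp5k) in place of 0, where it called 4.36% of all genes. At an unadjusted p under 0.05 it gave 14 members for housing in dnFGFR mice, where 13.4% of genes passed. It gave 9 for genotype in OS mice (10.9% of genes) and 18 for the interaction (8.61%). All of these were lower, against 1 member each by edgeR. With trends on GC content and length removed, edgeR gave 10 (6 higher, 4 lower), 9 (8 higher, 1 lower) and 4 (3 above 0, 1 below). The share of all genes in those refits is not given here. Over the 4 groups, with 1 mouse left out, the count of called members ranged from 0 to 1, again without the share of all genes. The median housing change in dnFGFR mice ranged from -0.21 to 0.00 and that between genotypes in OS mice from -0.20 to 0.02 with 1 mouse left out, the low end without dnFGFR OS replicate 2 and the high end without replicate 5. DESeq2 on 1 object without replicate 5 gave 0.01 and 0.02. With trends on GC content and length removed the medians were 0.01 and -0.02 for housing in control and dnFGFR mice, 0.04 and -0.02 for genotype in SS and OS mice, and -0.06 for the interaction. Leaving out dnFGFR OS replicates 2 and 5 together, and replicate 5 with the trend removed, were chosen after seeing the data. The latter gave a median of 0.00, slightly below 0, for housing in dnFGFR mice.

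With the replicate block the count of called members stayed 0, and the medians were 0.05, -0.10, 0.06, -0.07 and -0.14. Same-numbered mice did not deviate together (correlations from -0.23 to 0.26), which does not show what else they share. In dnFGFR mice, replicate 1 of both housings had the same collection date, as did replicate 5, and in control mice replicate 2. Within collection dates, housing gave 0.06 in control and -0.16 in dnFGFR mice.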
